A study of Mus musculus with 10 samples.

Results

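The comparison is between mouse cells exposed to TCDD for 96 h and the same kind of cells exposed for 72 h, described across all genes. It uses 4 of the 10 libraries of the series, chosen by their labels: 2 libraries at 96 h and 2 at 72 h, each with 5 nM TCDD dissolved in DMSO, which made up no more than 0.05% of the medium. All 4 libraries are labelled ES-derived cardiomyocytes of strain C57BL/6. They came from 1 G418-resistant line of C57BL/6N-C2 embryonic stem (ES) cells that carries the plasmid pNkx2.5PuroIRES2eGFP, in which the promoter of the cardiac gene Nkx2.5 drives puromycin resistance and GFP. The cells were differentiated without LIF by Noggin and then BMP4, and Nkx2.5-positive cells were selected with puromycin. The other libraries, which share the estimate of spread, are 2 each of TCDD 24 h, of DMSO vehicle at 24 h and of untreated ES cells. Vehicle cells were sampled at 24 h alone, so longer exposure to TCDD cannot be told apart from longer culture. Polyadenylated RNA was sequenced, and 15175 of the 24541 genes in the table had enough counts to be tested.

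TCDD (2,3,7,8-tetrachlorodibenzo-p-dioxin) binds the aryl hydrocarbon receptor, a transcription factor that then pairs with ARNT and switches on genes of xenobiotic metabolism such as Cyp1a1. Genes of contractile filaments are a separate system. Many of them are driven by serum response factor, which binds a short AT-rich element called the CArG box, and its coactivators respond to the state of the actin cytoskeleton. Guanylate binding proteins such as Gbp2 belong to the response to interferon.

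Total counts were 29712494 and 25177525 in the 96 h libraries and 15326612 and 21727599 in the 72 h libraries, replicate 1 before replicate 2. A count of 0 allows up to 3 counts, which is 0.101 and 0.119 CPM (counts scaled to a common library total) at 96 h and 0.196 and 0.138 CPM at 72 h, from counting error alone. Whether the 2 libraries of a time are separate cultures is not in the labels, so each p-value rests on a spread between libraries that may be technical. TCDD 72 h replicate 1 stood apart. The ribosomal precursor Rn45s took 2.198% and 1.447% of counts at 96 h, against 10.95% in that library and 2.541% in its 72 h partner. Long non-coding RNAs (lncRNA) took 0.2948% and 0.404% at 96 h, against 1.071% and 0.4117% at 72 h. Ribosomal protein genes took 10.62% and 10.22% at 96 h, against 7.519% and 10.15% at 72 h. Replicates differed by a chi-square statistic per gene of 18.93 at 96 h and 191.5 at 72 h. The replicates were at least 2-fold apart for 326 genes (2.15%) at 96 h and for 1732 genes (11.4%) at 72 h. List medians and many log2 fold changes below are therefore given with TCDD 72 h replicate 1 and without it. For most other genes only the level in each library is given. CPM use library sizes scaled by TMM (trimmed mean of M values). Each log2 fold change is 96 h over 72 h, from edgeR, and a count of genes above or below means that both 96 h libraries lay above or below both 72 h libraries. Of all genes tested, 18.6% were above and 20.3% below in this sense, and the counts for lists stand beside these shares.

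**Figure D1:**
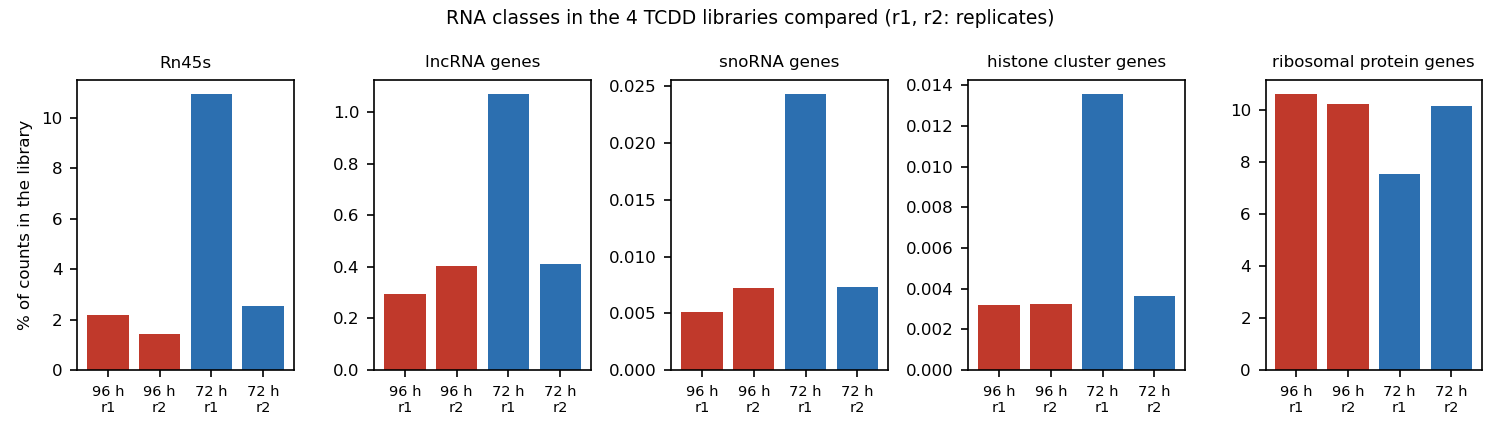
Share of each library's counts (percent, vertical axes from 0) taken by Rn45s, lncRNA genes, snoRNA genes, histone cluster genes and ribosomal protein genes, 1 bar per library, with the TCDD 96 h libraries left of the TCDD 72 h libraries. TCDD 72 h replicate 1 is the highest bar for the first 4 classes and the lowest for ribosomal protein genes (7.519%).

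The labelled cell type was checked against its markers. Of 12 cardiomyocyte markers, 8 averaged at least 1 CPM over the 4 libraries and 2 at least 10 CPM. Their summed level was 44.4 and 48.5 CPM at 96 h and 97.0 and 54.5 CPM at 72 h. Most of the excess in 72 h replicate 1 was the giant sarcomere gene Ttn, at 65.3 CPM. Tbx5 and Myl2 stayed under 0.3 CPM in all 4 libraries. All 6 pluripotency markers averaged at least 10 CPM, with sums of 1726 and 1611 CPM at 96 h and 1458 and 1725 CPM at 72 h. So did all 5 epithelial markers, with sums of 2159 and 2067 CPM at 96 h and 2084 and 1757 CPM at 72 h. The markers thus did not single out cardiomyocytes, and that word is used below as the labels give it. Endoderm markers averaged under 1 CPM in 4 of 4 cases, and the haemoglobin gene Hba-a1 had 0 counts in all 4 libraries. In bulk RNA, fewer cells of a type and less RNA per cell cannot be told apart.

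No gene passed the test between 96 h and 72 h. edgeR's quasi-likelihood test called 0 of 15175 genes (0%) at a Benjamini-Hochberg adjusted p under 0.05, where the lowest adjusted p of any gene was 0.935. At an unadjusted p under 0.05 there were 710 genes, 130 higher and 580 lower at 96 h. DESeq2 and limma-voom also called 0 genes, with 651 and 498 genes at an unadjusted p under 0.05. Both 96 h libraries lay above both 72 h libraries for 2827 genes (18.6%) and below both for 3077 genes (20.3%). The median log2 fold change was −0.01, with quartiles of −0.29 and 0.19. In the fifth of genes with the longest transcripts, 312 of 2910 were above and 1018 below. Their median was −0.16, and the median difference from TCDD 72 h replicate 2 alone was −0.07. In the fifth with the lowest share of G and C bases, 391 of 2910 were above and 808 below (medians −0.08 and −0.11). The part of length and base content in the values of single genes was not tested. At least 2-fold differences were found for 72 genes higher at 96 h (0.474%) and 816 lower (5.38%), and without TCDD 72 h replicate 1 for 286 (1.85%) and 211 (1.36%).

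Besides TCDD 72 h replicate 1, the second ES library and the first TCDD 24 h library were far from their partners. Which library of such a pair is unusual cannot be told from 2 libraries alone. Removing these 3 leaves 1 library each for ES cells, TCDD 24 h and TCDD 72 h. The spread then comes from the TCDD 96 h and DMSO pairs alone, which were the closest. Their chi-square statistics per gene were 18.93 and 3.228, against 196.4 for ES cells, 86.5 for TCDD 24 h and 191.5 for TCDD 72 h. Without these 3, edgeR called 2 of 15396 genes (0.013%), both higher at 96 h. They were the skeletal muscle actin gene Acta1 and the interferon-inducible GTPase gene Gbp2. Both had the same adjusted p of 0.0109 there, with a fold of 2.16 for Acta1 and 2.91 for Gbp2. In that fit the 72 h group is 1 library, which is assumed to vary like those 2 close pairs. When TCDD 72 h replicate 1 alone was left out, neither gene passed. Over the alternatives run, the edgeR adjusted p ranged between 0.00237 and 1 for Acta1 and between 0.00335 and 1 for Gbp2. Both lower ends came from crossing the replicate numbers in the 4 libraries compared, an alternative chosen after seeing the data.

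Genes of the contractile cytoskeleton were higher at 96 h than at 72 h in most cases, by up to about 2-fold, and none passed the test with all libraries. Acta1 (Entrez 11459, GRCm38 chromosome 8, 123891758 to 123894775, minus strand) had 94.1 and 83.7 CPM at 96 h and 38.8 and 41.2 CPM at 72 h. Both 96 h libraries were far above both 72 h libraries, and the replicates of each time lay close together. Means were 88.9 ± 7.35 CPM at 96 h and 40.0 ± 1.73 CPM at 72 h (SD, n = 2 each), a log2 fold change of 1.15 ± 0.31 SE (2.22-fold), and 1.11 without TCDD 72 h replicate 1. Across the cardiomyocyte libraries Acta1 had 51.4 and 49.6 CPM with DMSO and 80.9 and 57.6 CPM at 24 h of TCDD, so the 72 h libraries were the lowest and the 96 h libraries the highest.

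The promoters that carry a motif of serum response factor are shown for the leading genes because these genes were higher together. Sequences are RefSeq windows of GRCm38.p6, 250 bases before to 50 bases after a transcription start, read 5′ to 3′ on the gene's strand, with the CArG box in capitals. The box lies 73 bases before the start in Acta1 (chr8:123894726-123895025, minus strand) and 31 bases before 1 of the starts of Fhl2 (chr1:43163912-43164211, minus strand).
Acta1: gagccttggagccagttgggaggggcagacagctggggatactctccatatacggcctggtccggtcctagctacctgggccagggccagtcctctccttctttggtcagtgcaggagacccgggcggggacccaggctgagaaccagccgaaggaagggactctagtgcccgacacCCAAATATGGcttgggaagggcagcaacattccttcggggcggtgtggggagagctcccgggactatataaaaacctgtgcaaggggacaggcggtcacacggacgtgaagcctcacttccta
Fhl2: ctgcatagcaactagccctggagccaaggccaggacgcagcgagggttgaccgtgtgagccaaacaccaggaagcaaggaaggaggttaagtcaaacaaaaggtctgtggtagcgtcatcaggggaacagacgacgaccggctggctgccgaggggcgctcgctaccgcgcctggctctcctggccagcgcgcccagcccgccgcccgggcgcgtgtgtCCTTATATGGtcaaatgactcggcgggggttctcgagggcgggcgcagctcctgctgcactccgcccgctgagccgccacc
Among the 10 higher genes with the smallest p, 7 had a promoter in the table (8 promoters), and 3 promoters of 2 genes, Acta1 and Fhl2, held a CArG box on either strand. Of all 32851 promoters, 1.63% hold one. In the smooth muscle list, 11 of 14 genes had a promoter entry and 1 gene, Cnn2, had the box. For the 10 lower genes, 5 had a promoter entry and 0 had the box. A match is a run of letters and not a measured binding site.

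Cnn1, which encodes the actin-binding protein calponin of smooth muscle (Entrez 12797, chromosome 9, 22099221 to 22109221), had 76.4 and 65.1 CPM at 96 h and 25.5 and 40.1 CPM at 72 h. Its groups did not overlap, although the 72 h libraries themselves were apart. The log2 fold change was 1.11 ± 0.25 SE, with an unadjusted edgeR p of 0.00152, and 0.82 without TCDD 72 h replicate 1. Tagln, which encodes the actin-bundling protein transgelin (Entrez 21345, chromosome 9, 45929628 to 45936058), had 546.7 and 517.6 CPM at 96 h and 292.3 and 331.3 CPM at 72 h. Here the replicates of each time lay close together, and the log2 fold change was 0.77 ± 0.24 SE (0.68 without TCDD 72 h replicate 1). Fhl2, a LIM-domain cofactor found at the sarcomere, had 12.2 and 11.1 CPM at 96 h and 5.08 and 6.87 CPM at 72 h. The log2 fold change of Fhl2 was 0.96 ± 0.25 SE, and 0.76 without that library.

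Acta2, the smooth muscle actin gene, shows how much the low library weighs. It had 202.8 and 192.8 CPM at 96 h and 72.5 and 164.9 CPM at 72 h, so its log2 fold change of 0.74 ± 0.35 SE became 0.26 without TCDD 72 h replicate 1. In the smooth muscle list as a whole, 11 of 14 tested genes had both 96 h libraries above both 72 h libraries and 0 had both below, and 4 had an unadjusted p under 0.05. Shares over all genes were 18.6% above and 20.3% below. The median log2 fold change of the list was 0.54, against −0.01 over all genes, and it was 0.30 without TCDD 72 h replicate 1. Highly expressed genes as a whole also leaned higher. In the fifth of tested genes with the highest expression, 809 of 3035 were above and 327 below, with a median of 0.13. The exceptions were Des, the intermediate filament desmin, Synpo2 and the myosin kinase gene Mylk, whose groups overlapped. The 4 smooth muscle markers used as a check (Acta2, Tagln, Cnn1 and Myh11) summed to 827.5 and 776.9 CPM at 96 h and 391.4 and 537.2 CPM at 72 h. Their part in the result was not tested.

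**Figure D2:**
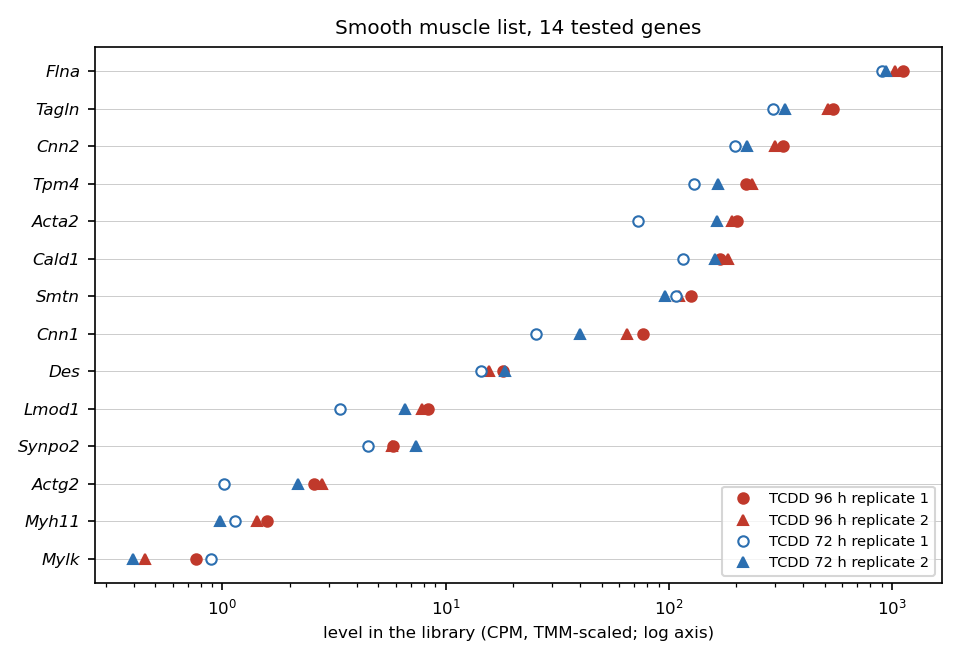
Level of each of the 14 tested genes of the smooth muscle list in the 4 libraries (CPM, logarithmic horizontal axis, 1 row per gene, 1 point per library). The red TCDD 96 h points lie to the right of both blue TCDD 72 h points in 11 rows, and overlap them for Des, Synpo2 and Mylk.

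A wider list of 28 genes of serum response factor and the cytoskeleton was put together after values had been seen, so its counts are a description. In 23 of its 28 genes both 96 h libraries were above both 72 h libraries, and in 1, Filip1l, both were below. Shares over all genes were 18.6% and 20.3%, and in the fifth with the highest expression 809 of 3035 genes were above and 327 below. The median log2 fold change of the list was 0.46, and 0.31 without TCDD 72 h replicate 1. Tropomyosin Tpm1, which lies along actin filaments, had 714.0 and 730.8 CPM at 96 h and 449.1 and 558.1 CPM at 72 h. The myosin light chain gene Myl9 had 80.2 and 74.1 CPM at 96 h and 36.4 and 56.2 CPM at 72 h. Srf itself had 133.8 and 116.8 CPM at 96 h and 105.0 and 104.9 CPM at 72 h, a log2 fold change of 0.26 ± 0.21 SE. The sources do not tell how reads shared by similar copies, such as the actin genes, were counted, so levels of such genes are uncertain.

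In the sarcomere list, 5 of 22 tested genes were above and 6 below without overlap, counts near the 18.6% and 20.3% over all genes, with a median log2 fold change of 0.06, and −0.14 without TCDD 72 h replicate 1. The cardiac actin gene Actc1 had 11.2 and 8.66 CPM at 96 h and 6.09 and 4.34 CPM at 72 h. Myh6, the alpha heavy chain of heart myosin, had 11.4 and 11.5 CPM at 96 h and 9.65 and 11.97 CPM at 72 h, which overlap. Its fetal counterpart Myh7 had 8.57 and 9.98 CPM at 96 h and 2.98 and 8.91 CPM at 72 h, and its log2 fold change of 0.62 became 0.06 without TCDD 72 h replicate 1. Nkx2-5, whose promoter drove the selection, had 3.66 and 2.11 CPM at 96 h and 1.97 and 2.48 CPM at 72 h, and troponin gene Tnnt2 stayed under 0.4 CPM in all 4 libraries. Ttn was lower at 96 h, with 6.98 and 12.4 CPM against 65.3 and 18.8 CPM at 72 h, and its log2 fold change of −2.11 ± 0.80 SE became −0.96 without TCDD 72 h replicate 1. Cardiac stress genes had 5 of 9 above and 1 below (median 0.31, and 0.11 without that library), with Acta1 and Fhl2 among the 5. Cardiac transcription factors had 4 of 23 above and 4 below (median 0.18, and 0.08). Calcium handling and channel genes had 3 of 15 above and 1 below (median −0.10, and 0.03), and skeletal muscle genes 2 of 7 above and 0 below (median 0.30, and −0.01).

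Gbp2 (Entrez 14469, chromosome 3, 142620663 to 142638008) had the smallest p of all genes that met the naming rule on the higher side. It had 18.2 and 18.3 CPM at 96 h, from 553 and 487 counts, and 8.885 and 6.295 CPM at 72 h, from 140 and 142 counts. The 96 h libraries were almost equal and both lay well above both 72 h libraries. Means were 18.3 ± 0.0877 CPM at 96 h and 7.59 ± 1.83 CPM at 72 h (SD, n = 2 each). The log2 fold change was 1.27 ± 0.28 SE, with an unadjusted edgeR p of 0.00132, and it was 1.54 without TCDD 72 h replicate 1. Gbp2 had 11.6 and 9.82 CPM at 24 h of TCDD and 8.65 and 7.74 CPM in DMSO cells, so the 96 h libraries stood above all other cardiomyocyte libraries.

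The Gbp2 promoter (chr3:142620413-142620712, plus strand, GRCm38.p6) holds 1 copy of a motif of interferon regulatory factors, GAAA repeated after a gap of 2 bases, 59 bases before the start. The copy is on the opposite strand, so that the capitals below give its reverse complement.
Gbp2: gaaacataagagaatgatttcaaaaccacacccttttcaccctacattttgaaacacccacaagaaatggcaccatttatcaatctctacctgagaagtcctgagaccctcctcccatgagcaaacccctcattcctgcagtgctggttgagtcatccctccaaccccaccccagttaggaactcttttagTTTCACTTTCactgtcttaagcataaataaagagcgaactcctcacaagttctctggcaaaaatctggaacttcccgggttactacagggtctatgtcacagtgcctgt
On either strand the motif is in 3.44% of the 32851 promoters. The receptor's core motif GCGTG, also searched on both strands, is in 32.4% of them, in 4 of the 8 promoters of the higher genes and in 3 of the 6 promoters of the lower genes.

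A list of 26 tested interferon and antigen presentation genes, Gbp2 included, was also put together after values had been seen. In 9 of the 26 genes both 96 h libraries were above both 72 h libraries and in 3 both were below, with a median log2 fold change of 0.10, and 0.31 without TCDD 72 h replicate 1. Shares over all genes were 18.6% above and 20.3% below. Psmb8, a subunit of the immunoproteasome, had 9.32 and 7.76 CPM at 96 h and 6.09 and 4.65 CPM at 72 h. The interferon regulatory factor gene Irf1 had 66.5 and 64.2 CPM at 96 h and 51.3 and 50.8 CPM at 72 h. Stat2, a transducer of interferon signals, was on the other side, with 9.23 and 9.79 CPM at 96 h and 17.3 and 10.8 CPM at 72 h. The blood markers Ptprc, Lyz2 and Csf1r together stayed under 5 CPM in each library. Their part in the result was not tested.

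Neuronal structural genes were higher at 96 h while several neurogenic and neuroendocrine factors were lower. Nefl, the light neurofilament subunit (Entrez 18039, chromosome 14, 68083863 to 68089095), had 48.1 and 40.8 CPM at 96 h and 24.4 and 26.8 CPM at 72 h. The 4 values fell into separate ranges, with a log2 fold change of 0.80 ± 0.20 SE, an unadjusted edgeR p of 0.00356, and 0.73 without TCDD 72 h replicate 1. It had 24.8 and 21.4 CPM at 24 h of TCDD and 20.3 and 22.1 CPM in DMSO cells. Stmn2, a regulator of microtubules in growing axons, had 49.3 and 49.5 CPM at 96 h and 29.7 and 33.5 CPM at 72 h. The growth cone gene Gap43 had 17.1 and 18.5 CPM at 96 h and 10.9 and 11.7 CPM at 72 h. Log2 fold changes were 0.64 ± 0.19 SE for Stmn2 and 0.65 ± 0.27 SE for Gap43, and they were 0.56 and 0.60 without TCDD 72 h replicate 1.

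Insm1, a zinc finger factor of neuroendocrine and neuronal precursors (Entrez 53626, chromosome 2, 146221997 to 146225020), had 8.53 and 8.33 CPM at 96 h and 16.9 and 14.1 CPM at 72 h. Both 72 h libraries were above both 96 h libraries, with a log2 fold change of −0.87 ± 0.25 SE, and −0.74 without TCDD 72 h replicate 1. Neurog3, a basic helix-loop-helix factor of endocrine precursors, had 4.32 and 4.82 CPM at 96 h and 5.14 and 8.02 CPM at 72 h. Neurod1, a factor of the same family in neurons, had 7.31 and 8.10 CPM at 96 h and 9.01 and 12.4 CPM at 72 h. Srrm4, a splicing regulator of neurons, had 2.50 and 2.19 CPM at 96 h and 7.24 and 3.55 CPM at 72 h. In the neural list, 8 of 16 tested genes were above and 4 below without overlap (median 0.27, and 0.29 without TCDD 72 h replicate 1). Shares over all genes were 18.6% above and 20.3% below. Among 4 neural markers, the summed level was 123.0 and 108.2 CPM at 96 h and 71.1 and 108.4 CPM at 72 h, mostly from Tubb3.

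**Figure D3:**
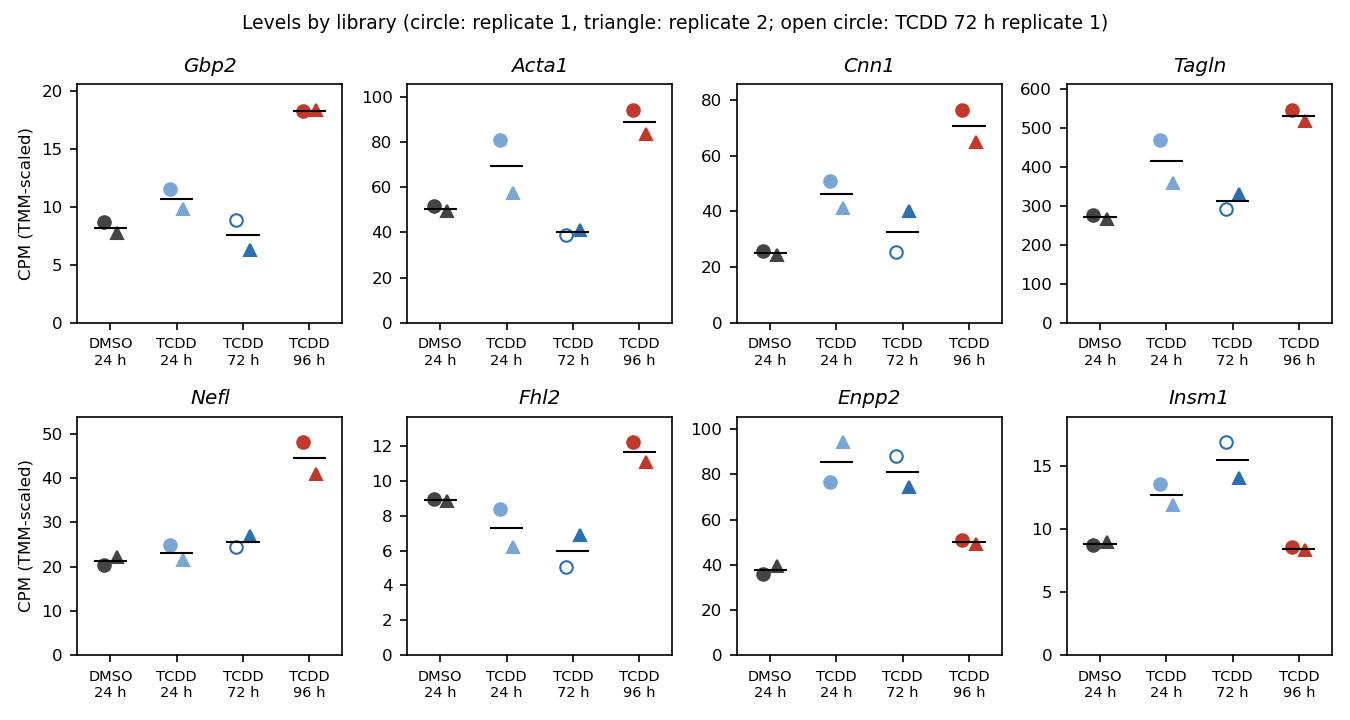
Level (CPM, vertical axes from 0) of 8 genes in the DMSO 24 h, TCDD 24 h, TCDD 72 h and TCDD 96 h libraries, 1 point per library (circle replicate 1, triangle replicate 2, open circle TCDD 72 h replicate 1) with the mean of 2 as a line. Gbp2, Acta1, Cnn1, Tagln, Nefl and Fhl2 have both TCDD 96 h points above both TCDD 72 h points, and Enpp2 and Insm1 have both below.

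Single genes on the higher side included Atf3, Capn2, Plau and Dusp14. The stress-induced transcription factor gene Atf3 had 16.5 and 15.2 CPM at 96 h and 6.85 and 9.84 CPM at 72 h. The protease gene Capn2 had 54.6 and 52.2 CPM at 96 h and 27.4 and 35.3 CPM at 72 h, and the urokinase gene Plau had 6.92 and 8.36 CPM at 96 h and 4.70 and 4.26 CPM at 72 h. Log2 fold changes without TCDD 72 h replicate 1 were 0.69 for Atf3, 0.60 for Capn2 and 0.84 for Plau. Dusp14, a phosphatase of MAP kinases, had 15.0 and 13.5 CPM at 96 h and 7.81 and 8.999 CPM at 72 h.

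Among patterning genes, the caudal factor gene Cdx2 had 8.599 and 7.08 CPM at 96 h and 6.41 and 4.17 CPM at 72 h. Over the Hox list, 3 of 23 tested genes were above and 4 below without overlap. The Hox median was 0.03 with both 72 h libraries and 0.45 without TCDD 72 h replicate 1, and most members were under 3 CPM. Wnt ligands showed the same dependence, with 4 of 16 above and 1 below and a median of 0.21 that became 0.50. Wnt4 had 13.9 and 14.4 CPM at 96 h and 13.0 and 8.16 CPM at 72 h, and Wnt6 had 17.4 and 15.7 CPM at 96 h and 11.99 and 10.3 CPM at 72 h.

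Among immediate early genes, 9 of 20 were above and 2 below without overlap, with a median log2 fold change of 0.18, and 0.22 without TCDD 72 h replicate 1. Shares over all genes were 18.6% above and 20.3% below. Jun, a subunit of AP-1, had 34.3 and 35.6 CPM at 96 h and 24.7 and 29.8 CPM at 72 h, while its partner Fos overlapped. In the BMP and TGF-beta list, 9 of 29 were above and 3 below (median 0.10, and 0.16). Id1, a direct target of BMP signals, had 83.9 and 79.7 CPM at 96 h and 42.8 and 64.5 CPM at 72 h. Notch genes lay the other way, with 2 of 16 above and 7 below (median −0.28, and −0.06). The ligand gene Dll3 had 12.6 and 11.4 CPM at 96 h and 23.3 and 18.4 CPM at 72 h, a log2 fold change of −0.79 ± 0.25 SE, and −0.61 without that library. The ligand gene Dll1 also had both 96 h libraries below, at 16.7 and 16.1 CPM, against 18.2 and 24.9 CPM at 72 h, while the target gene Hes1 was higher, with 23.6 and 22.6 CPM at 96 h and 18.7 and 18.2 CPM at 72 h.

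Enpp2, which encodes autotaxin, the secreted enzyme that makes lysophosphatidic acid (Entrez 18606, chromosome 15, 54838901 to 54952789), had the highest level at 96 h among the 10 lower genes with the smallest p. It had 50.8 and 49.4 CPM at 96 h and 88.0 and 74.6 CPM at 72 h, without overlap. The log2 fold change was −0.70 ± 0.19 SE, with an unadjusted edgeR p of 0.00534, and −0.57 without TCDD 72 h replicate 1. Enpp2 had 76.8 and 94.2 CPM at 24 h of TCDD and 36.1 and 39.6 CPM in DMSO cells, so that the 96 h libraries were the lowest of the TCDD libraries and still above DMSO. The adhesion receptor gene Adgrf5 (Entrez 224792, chromosome 17, 43360329 to 43459557) had 3.33 and 3.503 CPM at 96 h and 5.84 and 5.98 CPM at 72 h. Its log2 fold change of −0.79 was −0.81 without TCDD 72 h replicate 1. Slc17a9, a transporter that loads ATP into vesicles, had 5.17 and 5.58 CPM at 96 h and 15.7 and 8.11 CPM at 72 h. For the ascorbate transporter Slc23a1 the log2 fold change of −1.54 became −0.60 without that library. Scpep1os is labelled as an opposite strand transcript, and because the strand setting of the counting is not given its reads cannot be told apart from those of its partner.

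Among genes that the receptor controls directly, Cyp1a1, Cyp1b1, Tiparp and Nqo1 overlapped between the 2 times. Cyp1a1, the cytochrome P450 that dioxin induces most (Entrez 13076, chromosome 9, 57687928 to 57703824), had 17.5 and 15.1 CPM at 96 h and 14.4 and 17.5 CPM at 72 h, against 1.25 and 0.956 CPM in DMSO cells. The groups overlapped, with a log2 fold change of 0.03 ± 0.31 SE. Cyp1b1, a related P450, had 12.3 and 13.5 CPM at 96 h and 15.0 and 12.4 CPM at 72 h. Tiparp, a poly(ADP-ribose) polymerase that limits the receptor, had 62.0 and 64.5 CPM at 96 h and 55.0 and 64.6 CPM at 72 h. The quinone reductase gene Nqo1 had 86.7 and 81.0 CPM at 96 h and 39.7 and 102.0 CPM at 72 h, and its log2 fold change of 0.24 became −0.28 without TCDD 72 h replicate 1. Of 9 tested targets, 3 were above and 0 below without overlap (median 0.08, and −0.02). The 3 were the low-level genes Scin and Aldh3a1 and the matrix gene Ltbp1. Scin, which encodes an actin-severing protein, had 2.109 and 2.072 CPM at 96 h and 0.635 and 1.73 CPM at 72 h, a log2 fold change of 0.78 ± 0.42 SE, and 0.27 without TCDD 72 h replicate 1. Ahr itself had 13.3 and 14.5 CPM at 96 h and 14.5 and 14.2 CPM at 72 h. The receptor and its partners had 2 of 13 above and 3 below (median 0.07, and −0.03), and NRF2 oxidant response genes 3 of 22 above and 3 below (median 0.19, and −0.06).

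Pluripotency genes remained abundant at both times. Pou5f1, which encodes Oct4 (Entrez 18999, chromosome 17, 35506032 to 35510777), had 991.9 and 861.9 CPM at 96 h and 805.9 and 946.0 CPM at 72 h, which overlap. Nanog had 274.7 and 278.3 CPM at 96 h and 195.9 and 256.4 CPM at 72 h, a log2 fold change of 0.29 ± 0.19 SE, and 0.11 without TCDD 72 h replicate 1. Sox2 had 235.8 and 242.3 CPM at 96 h and 237.3 and 258.6 CPM at 72 h. In the core pluripotency list 3 of 18 were above and 7 below (median −0.08, and −0.07), in the naive list 0 of 18 above and 5 below (median −0.04, and −0.13), and in the formative and primed list 1 of 15 above and 4 below (median −0.08, and 0.10). Primitive streak and mesoderm genes had 2 of 16 above and 3 below (median −0.24, and 0.12).

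Among genes of the DNA methylation machinery, the methyltransferases overlapped between the times and Tet1 was lower at 96 h. Genes with long transcripts as a whole leaned lower too, as given above. Dnmt1, the maintenance methyltransferase, had 291.5 and 281.2 CPM at 96 h and 232.1 and 284.2 CPM at 72 h, and the de novo enzyme Dnmt3b had 957.3 and 841.9 CPM at 96 h and 795.8 and 945.3 CPM at 72 h. Tet1, which oxidises methylcytosine, had 112.4 and 164.5 CPM at 96 h and 304.7 and 206.5 CPM at 72 h. Its log2 fold change was −0.88 ± 0.56 SE, and −0.58 without TCDD 72 h replicate 1. Of 21 genes in the list 2 were above and 7 below (median 0.01, and −0.07). Polycomb genes had 3 of 22 above and 6 below (median −0.06, and −0.07), and imprinted genes 5 of 30 above and 9 below (median −0.18, and −0.08).

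Metabolic genes were slightly higher at 96 h in 2 lists that kept their direction without the library that stands apart. Highly expressed genes as a whole leaned the same way. In the fifth of tested genes with the highest expression, 809 of 3035 were above and 327 below. Their median log2 fold change was 0.13, and the median difference from TCDD 72 h replicate 2 alone was 0.02. In the glycolysis list 14 of 23 were above and 1, Pdk1, below, with a median log2 fold change of 0.24, and 0.12 without TCDD 72 h replicate 1. Pfkfb3, which makes the activator of phosphofructokinase, had 51.7 and 56.8 CPM at 96 h and 33.4 and 39.9 CPM at 72 h. In the cholesterol synthesis list 12 of 24 were above and 0 below (median 0.11), and without TCDD 72 h replicate 1 all 24 had a positive log2 fold change with a median of 0.13. Cyp51, the sterol demethylase, had 119.4 and 112.5 CPM at 96 h and 80.7 and 87.5 CPM at 72 h, a log2 fold change of 0.46 ± 0.18 SE. In other housekeeping lists the median was near 0 without that library. Ribosomal protein genes had 19 of 74 above and 1 below (median 0.24, and 0.03), nuclear respiratory chain genes 4 of 32 above and 0 below (median 0.23, and −0.03), and fatty acid oxidation genes 4 of 21 above and 1 below (median 0.21, and −0.01). Cell cycle and replication genes had 12 of 33 above and 1 below (median 0.16, and 0.03), and heat shock genes 3 of 14 above and 0 below (median 0.19, and 0.01).

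**Figure D4:**
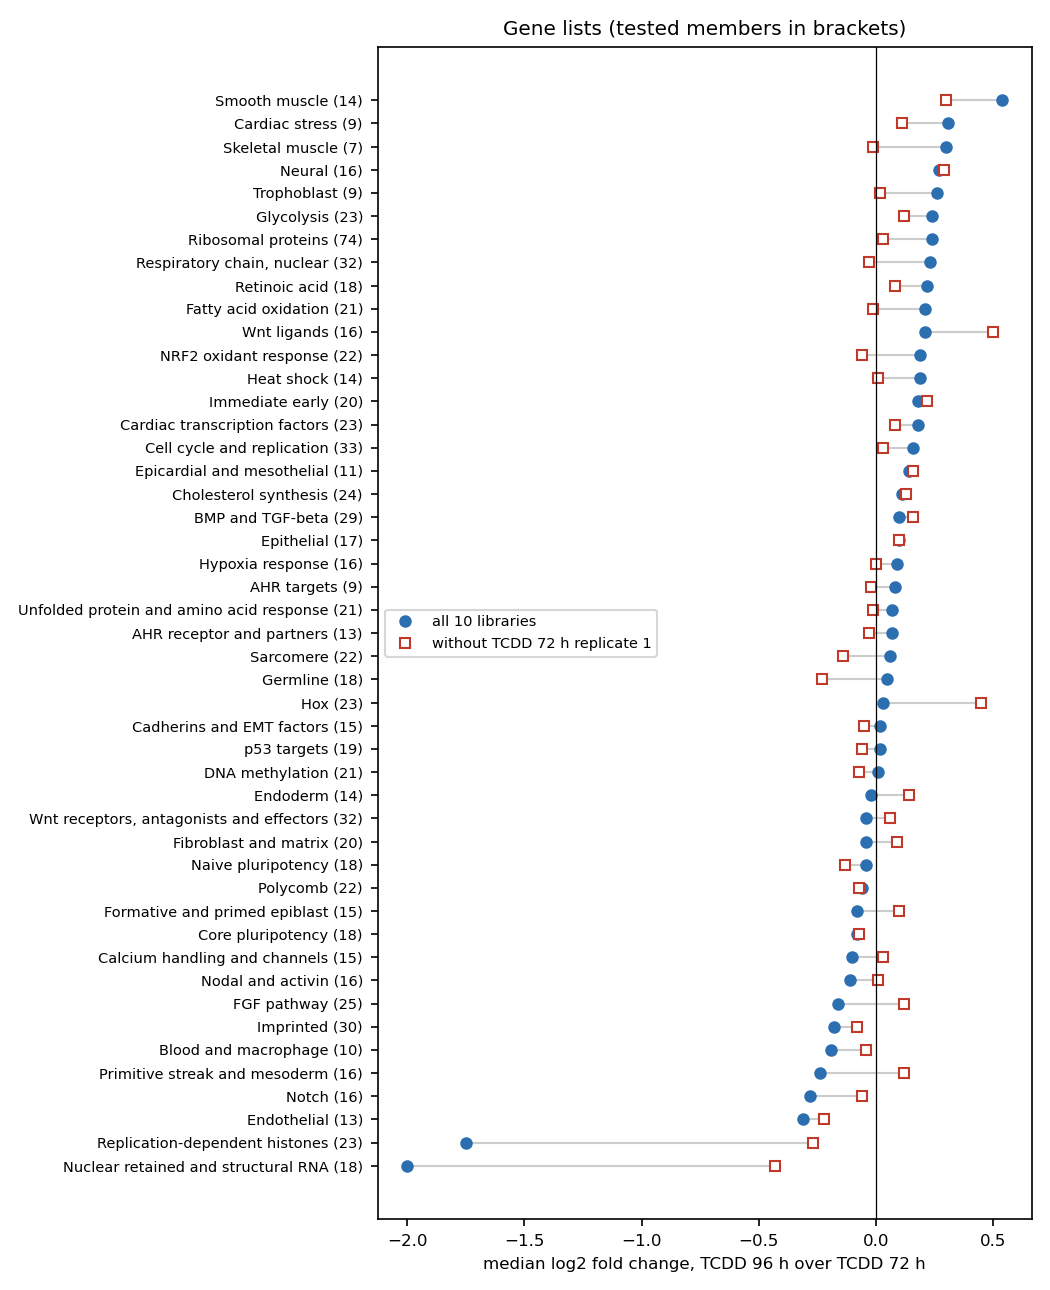
Median log2 fold change (TCDD 96 h over TCDD 72 h, horizontal axis) of the tested members of each gene list, 1 row per list, from all 10 libraries (blue circles) and without TCDD 72 h replicate 1 (red open squares). Smooth muscle genes have the highest blue circle (0.54), and the histone (−1.75) and nuclear RNA (−2.00) lists move to −0.27 and −0.43 without that library.

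Nuclear RNAs had the most negative median log2 fold change of any list. Most of its size, but not its direction, depended on TCDD 72 h replicate 1. Malat1, a long RNA of nuclear speckles, had 218.0 and 378.2 CPM at 96 h and 2777 and 418.3 CPM at 72 h. Neat1, the scaffold of paraspeckles, had 16.7 and 29.6 CPM at 96 h and 259.3 and 32.0 CPM at 72 h. Rmrp, the RNA of the mitochondrial RNA processing ribonuclease, had 4.48 and 3.35 CPM at 96 h and 194.1 and 4.74 CPM at 72 h. In all 3 genes a single library was high, and the other 72 h library lay near the 96 h libraries. Log2 fold changes of −2.42 for Malat1, −2.65 for Neat1 and −4.66 for Rmrp became −0.49, −0.47 and −0.27 without TCDD 72 h replicate 1. In the list of nuclear retained and structural RNA, 0 of 18 tested genes were above and 12 below (median −2.00, and −0.43). With that library left out, 1 of the 18 had a positive log2 fold change. Replication-dependent histone genes, whose main transcripts lack poly(A) tails, had 1 of 23 above and 12 below (median −1.75, and −0.27).

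The same contrast held by RNA class. Across 59 tested snoRNA genes the median of 96 h minus 72 h replicate 1 was −1.79 in log2 CPM, and that of 96 h minus 72 h replicate 2 was −0.21. Corresponding medians were −1.02 and −0.22 for 552 lncRNA genes, −2.12 and −0.25 for 35 histone genes, and 0.02 and 0.00 for 14403 protein coding genes. Of all 15175 genes tested, both 96 h libraries lay below 72 h replicate 2 for 5231 and above it for 4820. When TCDD 72 h replicate 2 was left out instead, the 72 h group was 1 library, the one that stands apart, assumed to vary like the other groups. In that fit edgeR called 331 of 15925 genes, 36 higher (0.226%) and 295 lower (1.85%) at 96 h. The 295 comprised 188 protein coding genes, 71 lncRNA genes and 15 snoRNA genes, and 13 of the 295 had an unadjusted p under 0.05 when replicate 1 was left out. Of the 295, 168 also had both 96 h libraries below the left-out replicate 2. The 36 higher genes were all protein coding, and 3 of them had an unadjusted p under 0.05 without replicate 1. Among the genes described above, Cnn1, Acta2, Myh7 and Nqo1 passed on the higher side against that single library, with edgeR adjusted p of 0.0405, 0.0495, 0.0445 and 0.0446. Slc17a9, Slc23a1, Scpep1os, Srrm4 and Rmrp passed on the lower side, with edgeR adjusted p of 0.0352, 0.0352, 0.0368, 0.0426 and 0.0352. For each of these 9 genes the adjusted p reached 1 under another alternative, and the lowest over all alternatives was 0.00286 for Cnn1, 0.00387 for Slc23a1, 0.0356 for Scpep1os and the value just given for the others. The lowest values of Cnn1, Slc23a1 and Scpep1os came from crossed replicate numbers in the 4 libraries compared, chosen after seeing the data.

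**Figure D5:**
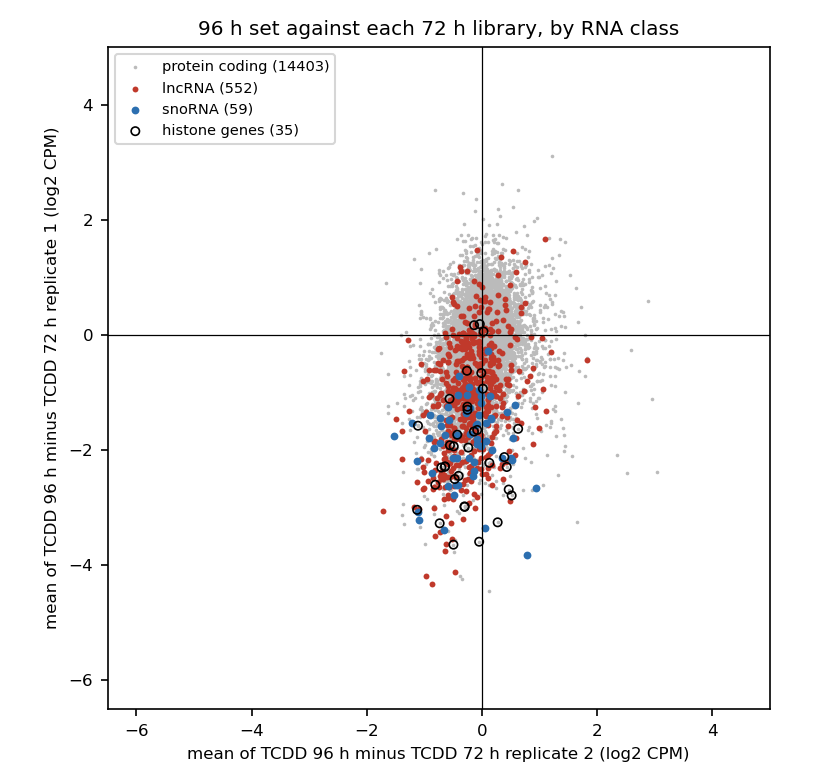
Difference in log2 CPM between the mean of the TCDD 96 h libraries and each TCDD 72 h library (horizontal axis replicate 2, vertical axis replicate 1), 1 point per tested protein coding (grey), lncRNA (red) or snoRNA (blue) gene, histone genes ringed. The lncRNA, snoRNA and histone points extend far below 0 against replicate 1, with medians of −1.02, −1.79 and −2.12, and lie near 0 against replicate 2.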

How the data were processed

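Poly(A) RNA extracted with TRIzol was sequenced as 51 bp single reads from directional dUTP libraries after 8 PCR cycles, in 10 libraries (5 groups of 2), per the labels' protocols. The authors deposited unnormalized whole-number counts per gene. Tools named in the submitters' processing notes are TopHat, edgeR, bcl2fastq and CASAVA 1.8, with build mm10; how genes were counted, with which annotation and strand setting, is not stated there. Coordinates are RefSeq GRCm38 spans matched by Entrez identifier.

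All 10 libraries entered one edgeR 4.0.16 model in R 4.3.3, with TMM factors, the default expression filter, 1 mean per group and robust quasi-likelihood on 5 residual degrees of freedom. Tests are two-sided with a Benjamini-Hochberg threshold of 0.05. Alternatives were DESeq2 1.42.0, limma-voom (limma 3.58.1), other scalings, filters and library sets, a GC offset (loess span 0.3), the replicate block and each library left out. The code was tested on simulated data. With the spread pooled over all libraries, 26% of simulated 2-fold changes and 100% of 4-fold changes were called. With the lower spread of the TCDD 96 h and DMSO libraries alone, 100% of both were called. That spread leaves out the 72 h pair, and no library was simulated as standing apart. Changed genes were drawn from those above 5 CPM. Unchanged genes called numbered 6 with the pooled spread and 12 with the lower one. A result of 0 calls therefore does not mean that no gene differed by 2-fold. Log2 CPM outside the model have a prior count of 2. Errors are the SD of 2 libraries, or the SE of a fitted log2 fold change. Depth is the total count, and the floor is 3 counts.

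Named genes were fixed genes of dioxin response, identity, methylation and nuclear RNA, the 10 higher and 10 lower genes with the smallest p (none passed) among those at 5 CPM or more without overlap, the same without TCDD 72 h replicate 1, and up to 4 per list. Others named beside them were chosen after their values were seen. The comparison, its genes and the 47 lists were chosen with earlier results of these data known, and lists are described by counts and medians, without a test. Some genes met by these rules are not reported here.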

Additional observations from a re-analysis of the deposited data

How the results depend on the processing

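edgeR called 0 genes with RLE or upper quartile factors, without the expression filter, with 1 CPM in 2 libraries, in the 4 compared, 6 TCDD or 8 cardiomyocyte libraries, without nuclear RNA genes, with a GC offset, and at an adjusted p under 0.1. Without the 3 libraries that stand apart it called 2. Leaving out 1 library at a time gave 0 to 331 genes, with 331 without TCDD 72 h replicate 2 and 0 in each other case. The fold changes of 25 of 222 named genes changed sign without TCDD 72 h replicate 1, of 9 without TCDD 96 h replicate 1 and of 3 without TCDD 72 h replicate 2. The cause was not tested.

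The replicate block called 0 genes, also with the GC offset. Deviations of same-numbered 96 h and 72 h libraries correlated at −0.215, which gives no sign of pairing by number. This value cannot exclude pairing, because TCDD 72 h replicate 1 stands apart. The labels do not say whether the numbers pair samples. Among alternatives chosen after seeing the data, the block in the 4 libraries alone called 0 genes and crossed numbers 197 (5 higher, 192 lower). Depth was lowest in TCDD 72 h replicate 1, with 15326612 counts.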

Other observations

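Genes of other cell types and pathways that the comparison covers also had no member past the threshold. Retinoic acid genes had 6 of 18 above and 1 below, with a median log2 fold change of 0.22, and 0.08 without TCDD 72 h replicate 1. The retinoic acid hydroxylase gene Cyp26a1 had 3.72 and 3.77 CPM at 96 h and 2.22 and 2.75 CPM at 72 h, while Stra6, which encodes a membrane carrier of retinol, was the 1 gene below. FGF pathway genes had 1 of 25 above and 6 below (median −0.16, and 0.12). Its growth factor gene Fgf4 had 112.5 and 107.4 CPM at 96 h and 120.3 and 139.4 CPM at 72 h, and the feedback inhibitor gene Spry4 had 41.0 and 40.2 CPM at 96 h and 56.4 and 46.3 CPM at 72 h. Nodal and activin genes had 3 of 16 above and 6 below (median −0.11, and 0.01), and Wnt receptors, antagonists and effectors 2 of 32 above and 8 below (median −0.04, and 0.06).

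Endothelial genes had 1 of 13 above and 3 below (median −0.31, and −0.22), with the tight junction gene Cldn5 at 4.22 and 4.33 CPM at 96 h and 5.14 and 5.67 CPM at 72 h. Fibroblast and matrix genes had 6 of 20 above and 1 below (median −0.04, and 0.09), epithelial genes 4 of 17 and 1 (median 0.10, and 0.10) and epicardial genes 2 of 11 and 2 (median 0.14, and 0.16). Endoderm genes had 3 of 14 above and 3 below (median −0.02, and 0.14), blood genes 1 of 10 and 2 (median −0.19, and −0.04) and trophoblast genes 2 of 9 and 0 (median 0.26, and 0.02). Germline genes had 0 of 18 above and 1 below (median 0.05, and −0.23). The homeobox gene Rhox5 showed the spread there, with 289.3 and 293.1 CPM at 96 h and 164.8 and 336.4 CPM at 72 h. Unfolded protein response genes had 5 of 21 above and 0 below (median 0.07, and −0.01), p53 targets 6 of 19 and 2 (median 0.02, and −0.06), hypoxia genes 3 of 16 and 3 (median 0.09, and 0.00), and cadherin and mesenchymal transition genes 4 of 15 and 4 (median 0.02, and −0.05).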
